A study of Homo sapiens with 18 samples.

Results

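AP-1 is a transcription factor built from pairs of basic leucine zipper proteins, and the genes of 6 of its subunits were examined: JUN, JUNB, FOS, FOSL1, FOSL2 and ATF3. The members are all histone mark peak summits that fall in a fixed window around each gene on hg19, 365 kb in total: chr1:59200000-59300000 for JUN, chr19:12890000-12915000 for JUNB, chr14:75725000-75770000 for FOS, chr11:65650000-65685000 for FOSL1, chr2:28590000-28660000 for FOSL2 and chr1:212720000-212810000 for ATF3. They number 521 of the 947675 summits in 13 lists. The JUN window held 148 summits, ATF3 100, FOSL2 83, JUNB 66, FOS 66 and FOSL1 58. By mark, 80 were H3K4me3, 183 were H3K27ac and 258 were H3K4me1 summits.

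The study profiled these 3 marks by ChIP-seq, the sequencing of DNA bound to immunoprecipitated chromatin, in human lung adenocarcinoma cell lines. LCC is the untreated line H2087-LCC, and TGFb is the same line given the cytokine TGF-β1 (100 nM over 4 days by the label, a dose that could not be checked here). SO1 is the line labelled H2087-LCC-SO1, whose derivation the labels do not give, and H2030 is another lung adenocarcinoma line. LCC and SO1 grew in RPMI with serum, hydrocortisone, selenite, insulin, transferrin, albumin and EGF. The H2030 medium had the serum but not these additions, so line and medium cannot be told apart in that comparison. LCC H3K27ac has 2 biological replicates, for which separate cultures are not described further, and every other condition and mark has 1 library. No test was run, since each condition set against LCC has a single library, and the 2 replicates are the only measure of error. The lists hold between 25624 and 143813 summits, and the read depth behind them is unknown.

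JUN and JUNB belong to the JUN subunits, which pair with each other or with FOS subunits such as FOS, FOSL1 and FOSL2. ATF3 is a stress-induced member of the related ATF group that also pairs with JUN proteins. Several of these genes are immediate early genes, switched on within minutes by growth factors, stress and cytokines, and AP-1 is known to bind many enhancers in epithelial cancer cells and to act with SMAD proteins downstream of TGF-β. H3K4me3 marks promoters, H3K27ac marks active promoters and enhancers, and H3K4me1 marks enhancers and promoter flanks.

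The JUN window stood out within the H3K27ac lists. A site 18.5 to 19.9 kb from the strongest H3K4me3 summit of the same condition was the window's strongest H3K27ac summit in all 4 lists of H2087 cells, and in SO1 it had the highest score of the whole list of 56279 summits. In H2030 the same site had order 4 in the window. FOSL1 also ranked within the first 1% of each H2087 list, while the strongest H3K27ac summits at FOS and ATF3 lay outside the first 5% of all 5 lists. At FOSL2 a distal site that came next after the H3K4me3-marked site in every H2087 list had the rank of a middling summit in H2030. Over the family, sites gained against LCC were a smaller share than over all sites for every mark and condition but H3K4me3 in SO1. Lost sites lay on either side of the share over all sites. Some of these gaps were small, such as 14.3% against 16.6% for H3K27ac gained in TGFb, and many of the counts moved with the settings.

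Promoter sequence is shown because each window has at least 1 strong H3K4me3 site, and because JUN and ATF3 share an element that played no part in choosing the windows. The RefSeq promoter table (build GRCh38.p14, so its coordinates are not used beside the hg19 summits) holds 5 of the 6 genes, with 2 starts for ATF3, and 250 bases before the start were searched on both strands. The capitals mark TGACATCA in JUN and ATF3, a variant of the cyclic AMP response element TGACGTCA, and TATAAA, the core letters of a box bound by the general transcription machinery, in JUNB and FOS. Each sequence runs 5′ to 3′ and ends at the base before the start.
JUN: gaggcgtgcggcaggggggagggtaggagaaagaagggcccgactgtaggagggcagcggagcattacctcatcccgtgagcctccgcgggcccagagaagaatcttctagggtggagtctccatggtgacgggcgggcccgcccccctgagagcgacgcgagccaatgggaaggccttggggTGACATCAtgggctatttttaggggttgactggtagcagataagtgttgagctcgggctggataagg
ATF3: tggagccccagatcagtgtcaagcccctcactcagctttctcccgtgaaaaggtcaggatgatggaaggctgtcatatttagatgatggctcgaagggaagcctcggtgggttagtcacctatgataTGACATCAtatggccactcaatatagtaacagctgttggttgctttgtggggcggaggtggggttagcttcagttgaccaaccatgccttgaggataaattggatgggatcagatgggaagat
JUNB: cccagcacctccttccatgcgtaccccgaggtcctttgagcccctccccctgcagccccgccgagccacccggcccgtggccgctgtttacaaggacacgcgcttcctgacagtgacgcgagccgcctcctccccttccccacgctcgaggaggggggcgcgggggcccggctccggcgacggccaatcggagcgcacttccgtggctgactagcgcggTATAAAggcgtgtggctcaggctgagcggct
FOS: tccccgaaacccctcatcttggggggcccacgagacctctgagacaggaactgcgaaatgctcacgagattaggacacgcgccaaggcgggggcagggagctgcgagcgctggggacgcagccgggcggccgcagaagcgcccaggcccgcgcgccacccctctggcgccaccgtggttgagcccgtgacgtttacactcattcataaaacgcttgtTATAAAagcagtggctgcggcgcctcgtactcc

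The match TGACATCA began 67 and ended 60 bases before the JUN start, and began 123 and ended 116 bases before the first ATF3 start. It was found in 2.37% of the 35116 promoters in the table. TATAAA spanned bases 31 to 26 before the JUNB start and 33 to 28 before the FOS start, and it also occurred 230 to 225 bases before the second ATF3 start. It was found in 10.7% of all promoters. No member promoter held the AP-1 site TGANTCA (6.57% of all promoters), TGACGTCA (1.65%), the SMAD palindrome GTCTAGAC (0.182%) or a CArG box, the core bound by serum response factor (1.16%), and FOSL2 held none of the motifs searched. These are matches of letters in a short stretch, and absence says only that the letters are not there. GC content was 62.0% for JUN, 70.8% for JUNB, 64.8% for FOS and 69.6% for FOSL2. The ATF3 starts were lower, at 49.2% and 44.8%.

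**Figure D1:**
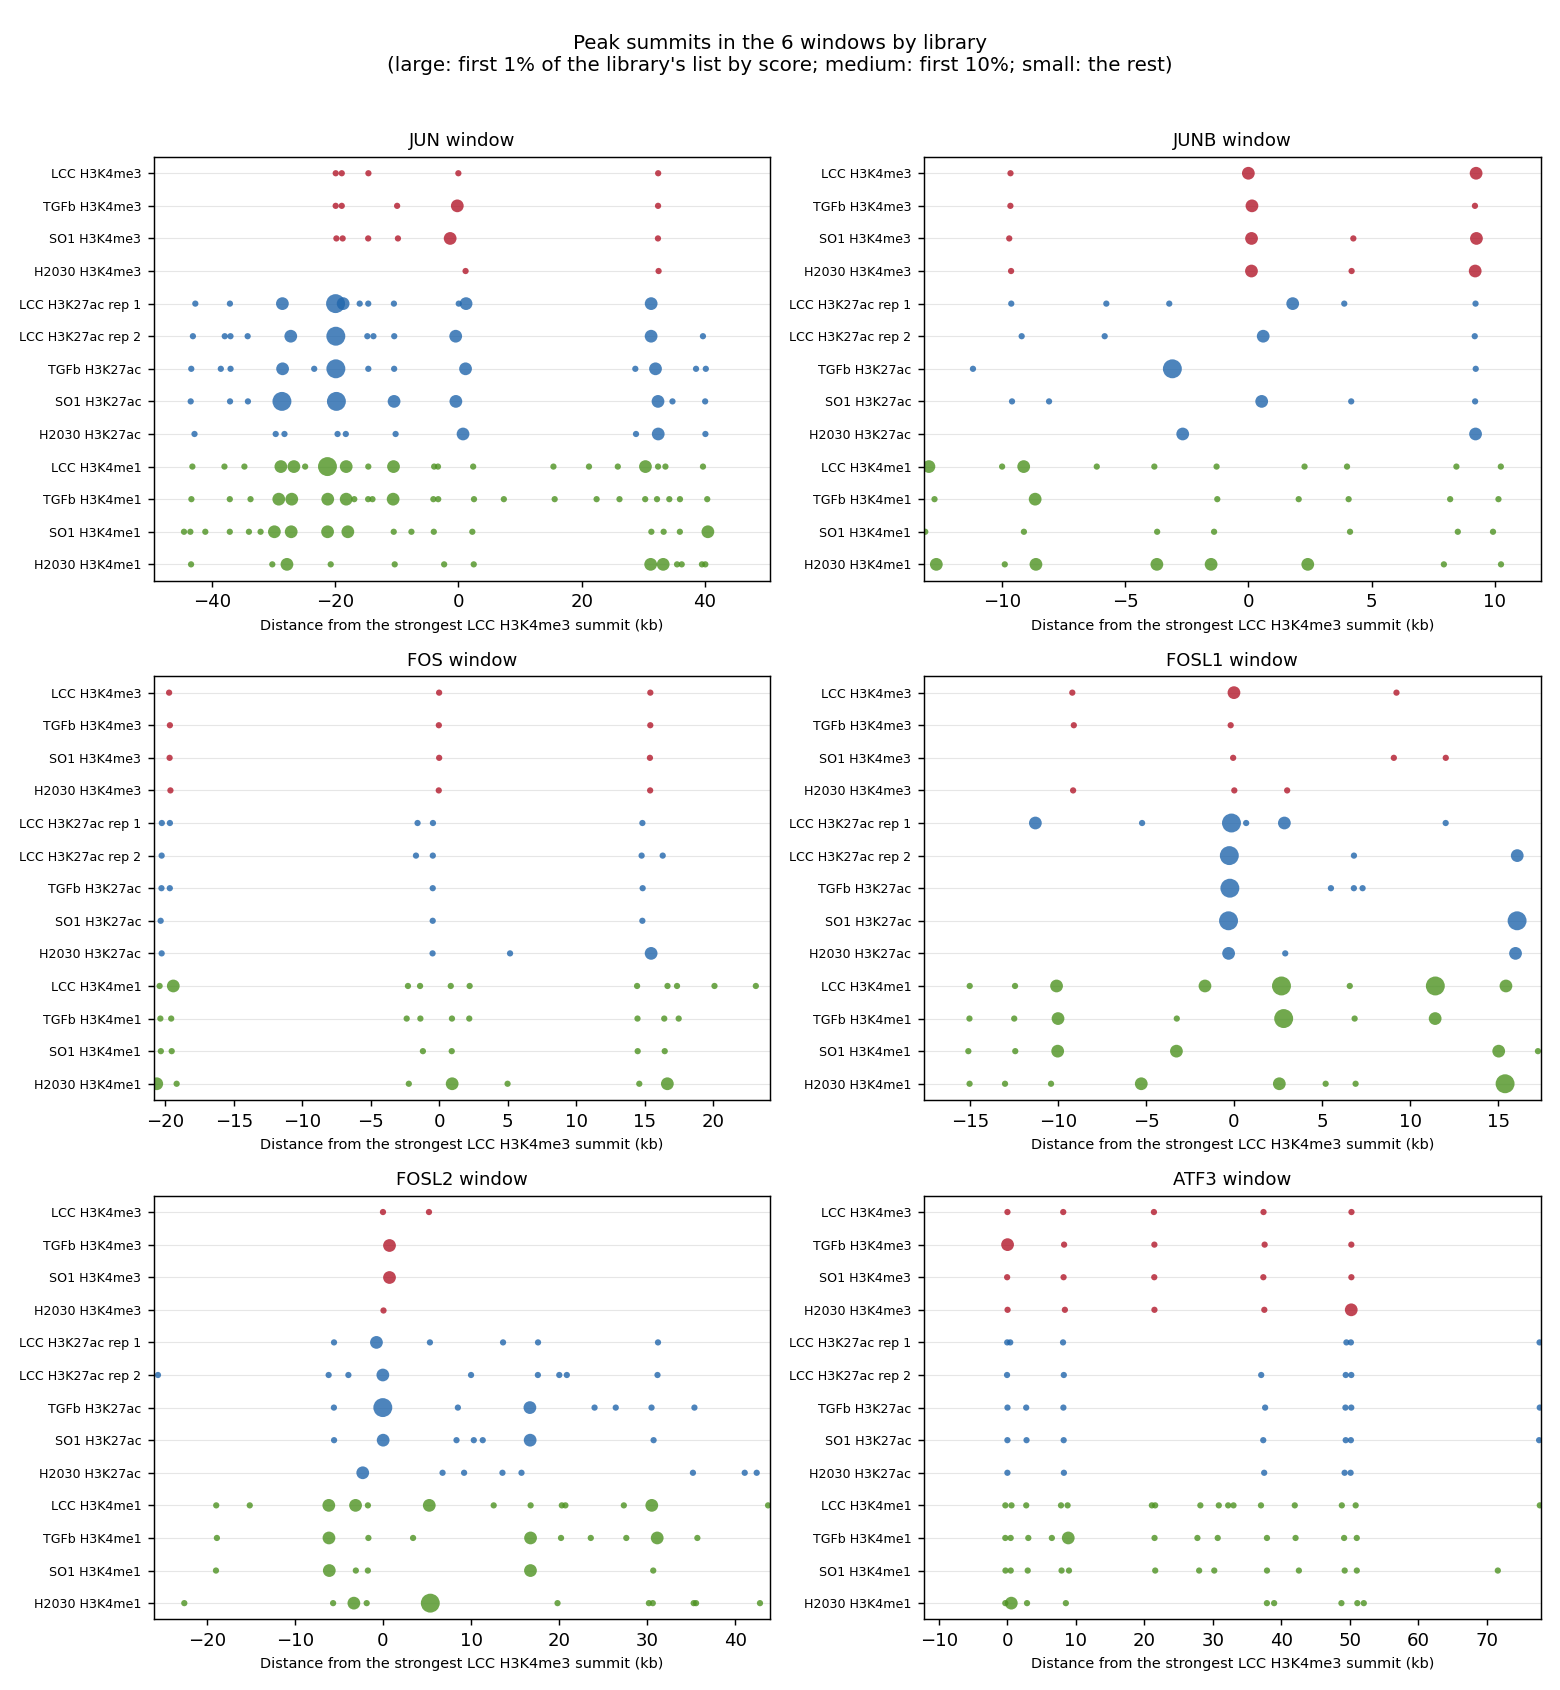
Peak summits in the 6 windows, 1 panel per gene and 1 row per library, plotted by distance in kb from the strongest LCC H3K4me3 summit. Colours give the mark (red H3K4me3, blue H3K27ac, green H3K4me1), and point size gives whether the summit is in the first 1%, the first 10% or the rest of its list by score. The 3 H3K4me3 sites at FOS and the 5 at ATF3 line up in all 4 rows, whereas the large H3K27ac points 19785 to 19923 bp left of 0 at JUN are small in the H2030 row.

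Scores below are the authors' peak scores, the −log10 of a p or q value of their peak caller. They rise with depth and were used to order summits within a list, so values of different lists are set side by side without reading a change from them. A site is a group of summits of one mark, each within 1000 bp of the next, and a score given for a site is the highest of that list there. Each peak has 1 summit and no width in the lists, so a summit missing from a list may be a lost mark or a peak joined to its neighbour, which cannot be told apart. No hg19 gene table was available, so H3K4me3 sites are given by position and are not assigned to a start. By gene order in RefSeq, the neighbours are MYSM1 and FGGY with the divergent transcript JUN-DT for JUN, HOOK2 and PRDX2 for JUNB, TMED10 and JDP2 for FOS, CCDC85B and C11orf68 for FOSL1, BABAM2 and PLB1 with FOSL2-AS1 for FOSL2, and NENF and GARIN4 for ATF3. Some sites in a window may belong to these.

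JUN encodes the subunit whose homodimers and heterodimers with FOS proteins form the classical AP-1. Its window was dense in marks, with 11 and 12 H3K27ac summits in the LCC replicates, 13 in TGFb, 10 in SO1 and 10 in H2030. The median over tiles of 100 kb with a summit of the mark was 2 in the H2087 lists and 1 in H2030. H3K4me1 gave 20, 23, 18 and 13 summits in LCC, TGFb, SO1 and H2030, against tile medians of 5, 5, 4 and 3. The window thus held several times the usual number of H3K27ac and H3K4me1 summits in every condition. This was not particular to JUN, since each other window also held more H3K27ac summits than its tile median in every list. In LCC replicate 1 there were 6 at JUNB, 5 at FOS, 6 at FOSL1 and 6 at FOSL2 against a median of 1, and 6 at ATF3 against 2. The smallest excess was 2 against 1, at FOSL1 in SO1 and at JUNB in H2030. Per 10 kb, LCC replicate 1 had 1.10 at JUN, 2.40 at JUNB and 1.71 at FOSL1.

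The strongest H3K27ac site of the JUN window in H2087 cells was chr1:59229478-59231142. LCC replicate 1 scored 207 there, rank 316 of 50628 summits, and replicate 2 scored 418, rank 58 of 62947. TGFb scored 500, rank 154 of 68069, and SO1 638, rank 1 of 56279. The H2030 score was 61.8, with 30.0% of its list at or above it. The H2087 lists thus all placed the site within the first 0.624% of their summits, and H2030 did not. H2030 had its strongest H3K27ac summit of the window at chr1:59281826 instead, with a score of 307 and rank 2284 of 52414 (the first 4.36%), followed by chr1:59250160 with 277 and chr1:59221191 with 67.4.

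H3K4me1 flanked the same site on both sides. At chr1:59228166-59228694 it scored 107 in LCC, 61.5 in TGFb, 86.1 in SO1 and 10.2 in H2030. At chr1:59231203-59231470 it scored 70.0, 47.0 and 110 in the 3 H2087 conditions, and the nearest H2030 summit lay 2509 bp away. A weak H3K4me3 site at chr1:59229498-59230630 scored 24.6 in LCC, 15.0 in TGFb and 64.6 in SO1, and the nearest H2030 H3K4me3 summit lay 19942 bp away. All 3 marks were therefore present here in each H2087 condition, while H2030 had H3K27ac, H3K4me1 on one side and no H3K4me3.

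H3K27ac was also found at other distal JUN sites. At chr1:59238945-59239221 H3K27ac scored 50.2 and 119 in the LCC replicates, 122 in TGFb and 307 in SO1, against 7.30 in H2030. At chr1:59205978-59206727 the scores were 18.1 and 41.6 in the LCC replicates, 47.3 in TGFb, 109 in SO1 and 5.85 in H2030. H2030 thus had a summit at both, low in its own list. At chr1:59220778-59221191 LCC replicate 1 scored 127, TGFb 371, SO1 569 and H2030 67.4, and the replicate 2 summit lay at chr1:59222213 with 264. A site toward the other end of the window, chr1:59289080-59289546, scored 4.41 in LCC replicate 2, 38.7 in TGFb, 79.1 in SO1 and 4.39 in H2030, and replicate 1 had no summit there. It is a point where the 2 LCC replicates differ from each other.

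H3K27ac at the 2 main H3K4me3 positions was present in all 5 lists. At chr1:59248971-59250651 it scored 122 and 201 in the LCC replicates, 305 in TGFb, 340 in SO1 and 277 in H2030. At chr1:59280670-59281826 it scored 152 and 220 in the replicates, 407 in TGFb, 394 in SO1 and 307 in H2030. These were the leading pair of the window in H2030 but stood below the distal site in each H2087 list.

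The strongest H3K4me3 summit of the window lay at chr1:59249401 in LCC (score 454), at chr1:59249230 in TGFb (631), at chr1:59248070 in SO1 (681) and at chr1:59250572 in H2030 (496). The SO1 summit ranked 353 of 28627, within the first 1.23% of its list, and the TGFb summit ranked 699 of 28850, within the first 2.42%. The SO1 and H2030 summits lay 1331 bp and 1171 bp from that of LCC, so the rule for sites counts them as a gained and a lost site although each list has a strong peak here. The other strong H3K4me3 site, chr1:59281781-59281885, scored 340 in LCC, 330 in TGFb, 449 in SO1 and 390 in H2030. Between them and the distal H3K27ac site, SO1 had an H3K4me3 summit of 71.2 at chr1:59239468-59239598, where TGFb had a weak one and the nearest LCC summit lay 4659 bp away. At chr1:59234771-59234809 LCC scored 11.5 and SO1 35.9, and the nearest TGFb summit lay 4288 bp away.

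**Figure D2:**
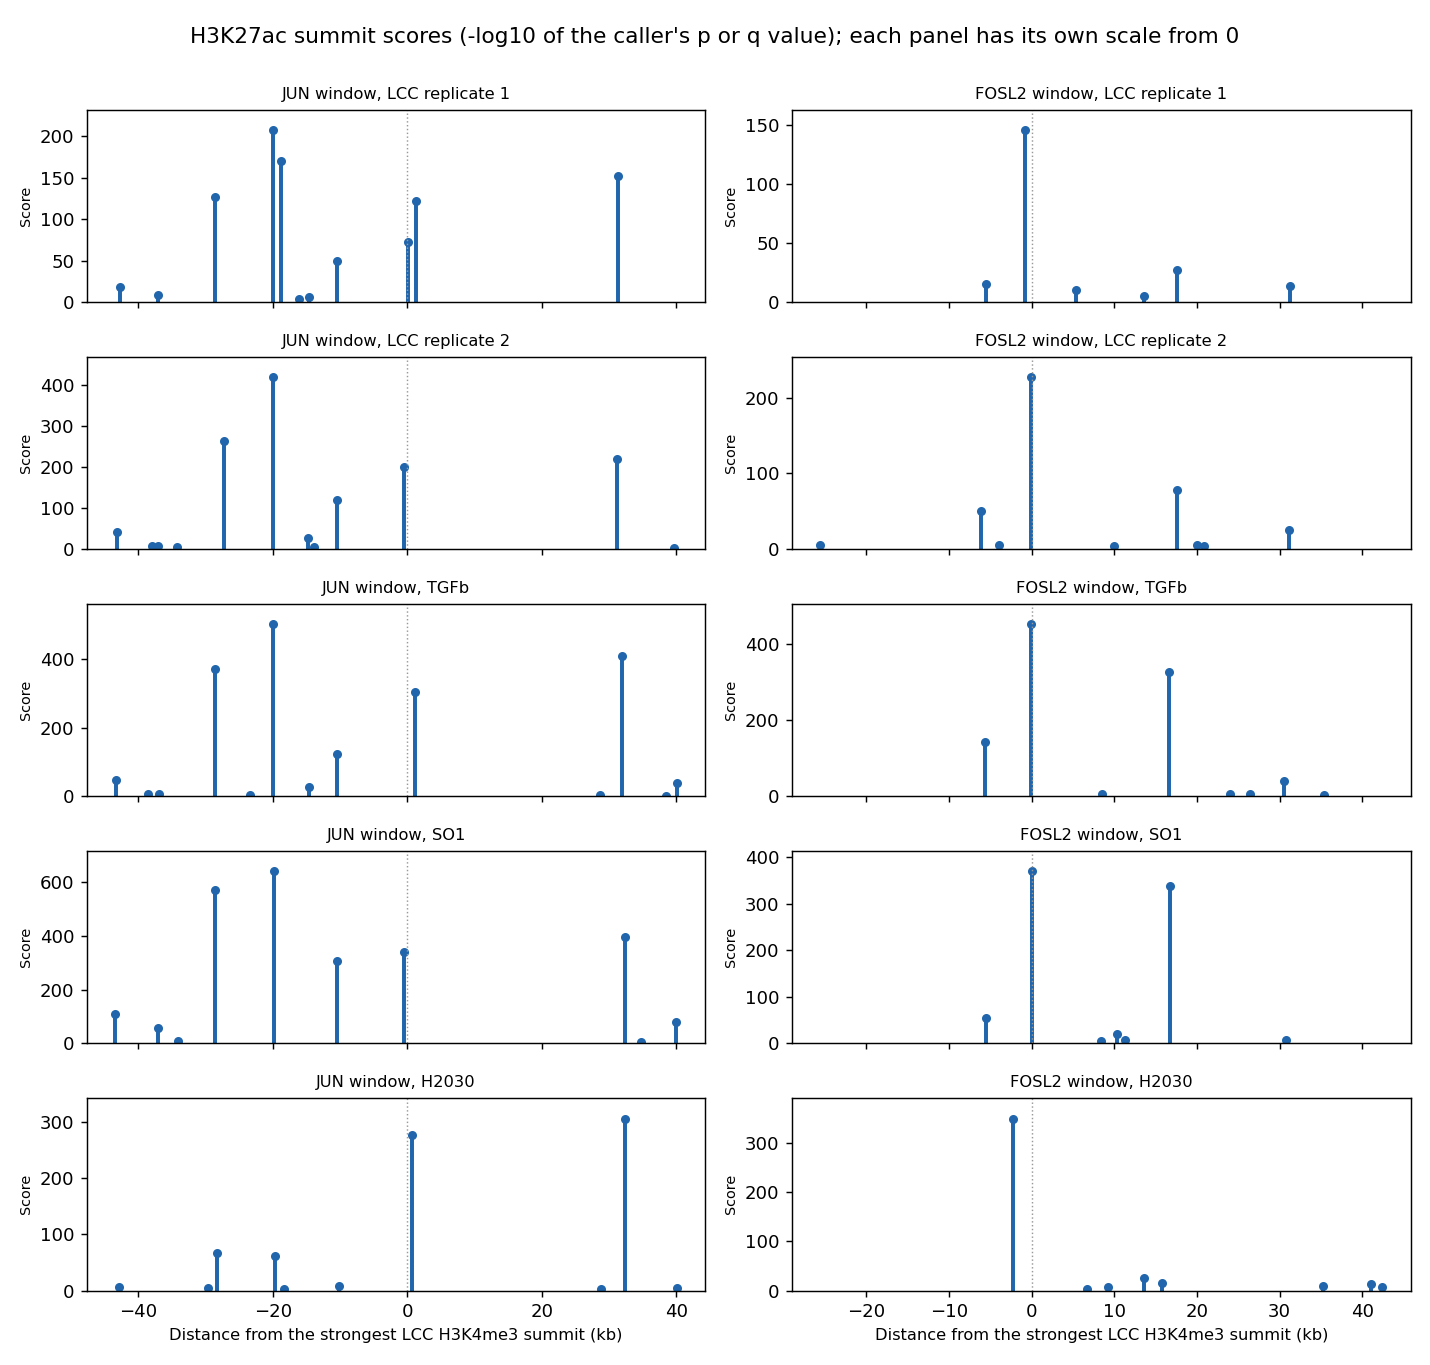
H3K27ac summit scores (−log10 of the caller's p or q value) in the JUN and FOSL2 windows by distance in kb from the strongest LCC H3K4me3 summit, with 1 row per library and a scale of its own, starting at 0, in each panel. At JUN, 19785 to 19923 bp left of 0, the tallest line of each H2087 panel reaches 207, 418, 500 and 638, and the H2030 line there reaches 61.8; 16.7 kb right of 0 at FOSL2 the lines reach 325 in TGFb and 338 in SO1, beside the lines of the leading site at 0.

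JUNB encodes a JUN subunit that is a weaker activator than JUN on many targets and is itself induced by TGF-β in many cell types. Its H3K4me3 was shared: 3 sites carried a summit in every list. At chr19:12893453-12893528 the scores were 241 in LCC, 237 in TGFb, 318 in SO1 and 304 in H2030. At chr19:12903151-12903297 they were 557, 619, 663 and 560, and at chr19:12912341-12912402 they were 543, 568, 653 and 585. The middle site was the strongest in each H2087 list and the last site was the strongest in H2030.

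The strongest JUNB H3K27ac summit did not keep its place. It lay at chr19:12904950 in LCC replicate 1 (score 93.3, within the first 6.58% of the list), at chr19:12903753 in replicate 2 (165, 5.68%) and at chr19:12903692 in SO1 (258, 7.75%). In TGFb it lay at chr19:12900069 with a score of 491, rank 184 and the first 0.270% of the list, and in H2030 at chr19:12900489 with 358, in the first 1.99%. LCC replicate 1 also had a summit in that last place, at chr19:12899943-12900489, with 69.9, and replicate 2 and SO1 had none. TGFb was the only list with a JUNB H3K27ac summit in its first 1%, but the 2 LCC replicates did not share the position of their own strongest summit.

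Smaller JUNB sites differed between LCC and the other conditions. H3K27ac at chr19:12893535-12893957 scored 32.2 and 70.2 in the LCC replicates and 48.3 in SO1. The nearest TGFb and H2030 summits lay 1553 bp and 3663 bp away. That TGFb summit, at chr19:12891982 with 3.90, counts as gained, so the rule for sites counts a loss and a gain side by side in TGFb. At chr19:12897324-12897391 only the LCC replicates had H3K27ac, with 10.9 and 10.4, and at chr19:12897003 only LCC had H3K4me1, with 26.7. H3K4me1 at chr19:12899338-12899452 scored 33.7 in LCC, 54.3 in SO1 and 63.3 in H2030, and the nearest TGFb summit lay 2439 bp away. Weak H3K4me3 at chr19:12907339-12907409 was found in SO1 (13.4) and H2030 (12.7), where the nearest LCC summit lay 4188 bp away. LCC thus had 2 small marks here that no other condition had.

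FOS, the prototype immediate early partner of JUN, had the most even H3K4me3 pattern together with ATF3. All 3 of its H3K4me3 sites were found in all 4 lists. At chr14:75726114-75726210 the scores were 151 in LCC, 221 in TGFb, 183 in SO1 and 239 in H2030. At chr14:75745800-75745829 they were 430, 563, 532 and 514, and at chr14:75761216-75761245 they were 384, 463, 472 and 395. The middle site was the strongest in every list.

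H3K27ac at FOS was modest in the H2087 lists. At chr14:75745348-75745375 it scored 32.2 and 71.0 in the LCC replicates, 155 in TGFb, 131 in SO1 and 150 in H2030. At chr14:75760609-75762149 it scored 32.1 and 36.6 in the replicates, 118 in TGFb, 109 in SO1 and 275 in H2030, and at chr14:75725497-75726171 it scored 24.8, 21.8, 75.8, 54.3 and 178. The middle site led in all H2087 lists and the site at chr14:75760609-75762149 led in H2030, where it was within the first 6.12% of the list. The strongest FOS summit was within the first 26.3% and 18.7% of the lists of the LCC replicates, 16.9% of the TGFb list and 21.0% of the SO1 list. H2030 alone had H3K27ac at chr14:75751004 (9.61), beside H3K4me1 at chr14:75750823 (15.1). A weak site at chr14:75744136-75744252, with 4.54 and 5.22, appeared only in the LCC replicates, and the other lists had a summit 1096 to 1108 bp away.

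FOSL1, which encodes FRA1, a FOS subunit often abundant in invasive carcinoma cells, had strong marks in all conditions. H3K4me3 at chr11:65667408-65667614 scored 591 in LCC, 556 in TGFb, 576 in SO1 and 531 in H2030. H3K27ac at chr11:65667286-65668287 scored 203 and 353 in the LCC replicates, 448 in TGFb, 495 in SO1 and 334 in H2030. It was the strongest H3K27ac summit of the window in every list but SO1. The strongest summit lay within the first 0.693% and 0.313% of the lists of the LCC replicates, 0.677% in TGFb, 0.130% in SO1 and 2.93% in H2030. After JUN, FOSL1 had the best-placed H3K27ac summit of the 6 genes in 3 of the 4 H2087 lists, the exception being TGFb, in which JUNB and FOSL2 also came before it.

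SO1 differed from the other H2087 lists at FOSL1 in H3K4me3 and H3K4me1. H3K4me3 at chr11:65658415-65658501 scored 492 in LCC, 507 in TGFb and 427 in H2030, and the nearest SO1 summit lay 9047 bp away. At chr11:65676672-65676822 SO1 had H3K4me3 with 449, while LCC scored 9.88 and the nearest summits of TGFb and H2030 lay 9264 bp and 6057 bp away. SO1 alone also had H3K4me3 at chr11:65679621, with 40.9. H2030 had a weak H3K4me3 summit of its own at chr11:65670615, with 15.2. SO1 thus lacked the strong summit that the other conditions had on one side of the shared site, and had a strong one on the other side, where LCC and H2030 had weak summits.

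H3K4me1 at chr11:65670170-65670417 scored 101 in LCC, 86.8 in TGFb and 52.3 in H2030, and at chr11:65679018-65679028 it was found in LCC (99.8) and TGFb (75.3). SO1 had none at either, its closest H3K4me1 summits being 5842 bp and 3599 bp off. At chr11:65682627-65683038 SO1 scored 114, LCC 70.4 and H2030 82.8, with the nearest TGFb summit 3609 bp away. Beside this last site lay the strongest SO1 H3K27ac summit of the window, at chr11:65683582-65683679, with a score of 545 and rank 73 of 56279. LCC replicate 2 scored 275 and H2030 253 there, but the nearest summits of LCC replicate 1 and TGFb lay 2549 bp and 2580 bp away. The 2 LCC replicates therefore differ at this site as SO1 and TGFb do. They also differ at chr11:65670457-65670506, with 75.3 in replicate 1 and 184 in H2030 only, and at chr11:65656318, with 116 in replicate 1 only.

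FOSL2 encodes FRA2, a FOS subunit expressed in many epithelial cells. It had a single strong H3K4me3 site, chr2:28616020-28616726, with 516 in LCC, 618 in TGFb, 611 in SO1 and 482 in H2030. H3K27ac at chr2:28615279-28616040 scored 145 and 227 in the LCC replicates, 451 in TGFb and 369 in SO1. The H2030 summit lay 1557 bp to the side, at chr2:28613722, with 349. The strongest summit was within the first 2.16% and 2.34% of the lists of the LCC replicates, 0.638% in TGFb, 2.60% in SO1 and 2.32% in H2030.

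A distal FOSL2 site, chr2:28631751-28633628, came next in each H2087 list. LCC replicate 1 scored 27.5, within the first 29.8% of its list, and replicate 2 scored 77.7, within the first 17.3%. TGFb scored 325 at chr2:28632706, within the first 4.08%, and SO1 338 at chr2:28632733, within the first 3.66%. H2030 scored 16.0 at chr2:28631751, within the first 49.3%. The TGFb and SO1 summits lay 27 bp apart, and those of the LCC replicates, at chr2:28633628 and chr2:28633611, lay together on the other side of H3K4me1 at chr2:28632769-28632788. That H3K4me1 scored 44.4 in LCC, 61.7 in TGFb and 91.7 in SO1, and the nearest H2030 summit lay 3055 bp away. Beside the H3K4me3-marked site of the same list, the distal site scored 338 against 369 in SO1 and 325 against 451 in TGFb, but 27.5 against 145 and 77.7 against 227 in the LCC replicates. Lists differ in length and depth, so these scores and percentages describe each list and do not measure a change between them.

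Other FOSL2 sites also differed between lists, and not always between H2030 and the H2087 lists as a group. H3K27ac at chr2:28609850-28610466 scored 15.7 and 50.1 in the LCC replicates, 142 in TGFb and 55.1 in SO1, and H2030 had none. At chr2:28646518-28647252 it scored 13.5 and 24.9 in the replicates, 40.1 in TGFb and 7.73 in SO1, again with none in H2030. The H3K4me1 scores at chr2:28646220-28647163 were 84.6, 44.4, 53.1 and 5.87 in LCC, TGFb, SO1 and H2030. H2030 had H3K4me1 at chr2:28621276-28621395, with 78.3, where LCC had 50.2 and TGFb and SO1 had none. It also had the mark at chr2:28612715-28612938, with 57.0, where LCC had 50.3, SO1 had 30.3 and TGFb had none. At chr2:28635843-28636737 H3K4me1 scored 28.4 in H2030, 5.64 in LCC and 9.08 in TGFb, and SO1 had none. The next H3K27ac summit of H2030 after its leading one, at chr2:28629589, scored 25.1. LCC alone had weak H3K4me3 at chr2:28621244, with 12.4, beside the H3K4me1 site at chr2:28621276-28621395.

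ATF3 encodes a stress-response factor that is also a known TGF-β target, and RefSeq lists 2 starts for it. All 5 of its H3K4me3 sites had a summit in all 4 lists. The strong ones were chr1:212732124-212732186, with 451 in LCC, 586 in TGFb, 475 in SO1 and 465 in H2030, and chr1:212782366-212782401, with 438, 474, 527 and 606. The first was the stronger in LCC and TGFb and the second in SO1 and H2030, where it ranked 325 of 25624. At chr1:212740314-212740554 the scores were 90.7, 83.6, 95.8 and 13.8, and the other sites scored between 5.67 and 23.2 in all lists.

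The 3 strongest H3K4me3 sites of the ATF3 window also carried H3K27ac in all 5 lists. At chr1:212732111-212732575 it scored 29.7 and 64.9 in the LCC replicates, 144 in TGFb, 104 in SO1 and 139 in H2030. At chr1:212740286-212740410 it scored 14.3, 46.4, 99.8, 182 and 16.5, and at chr1:212781399-212782374 it scored 25.4, 34.3, 55.6, 99.1 and 67.5. The site at chr1:212740286-212740410 was the strongest of the window in SO1, and the first site was the strongest in the other 4 lists. No ATF3 H3K27ac summit was near the top of a list: the strongest lay within the first 28.0% and 20.3% for the LCC replicates, 18.3% for TGFb, 14.2% for SO1 and 18.8% for H2030. At chr1:212734907-212734956 TGFb (14.4) and SO1 (23.4) had H3K27ac, and the LCC replicates had theirs 2332 bp and 2796 bp off. No H3K4me3 site lay there. All 4 conditions carried H3K4me1 at this place, at chr1:212734913-212735215, with 16.5 in LCC, 20.0 in TGFb, 49.6 in SO1 and 13.5 in H2030. At chr1:212809798-212810478, likewise without H3K4me3, H3K27ac scored 10.3 in LCC replicate 1, 15.0 in TGFb and 80.3 in SO1, and LCC replicate 2 and H2030 had none. H2030 lacked H3K4me1 at several sites of the window. Among them were chr1:212774121-212774723, which scored 36.6 in LCC, 39.4 in TGFb and 49.8 in SO1, and chr1:212809897-212810594, which scored 32.9, 51.2 and 39.8.

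**Figure D3:**
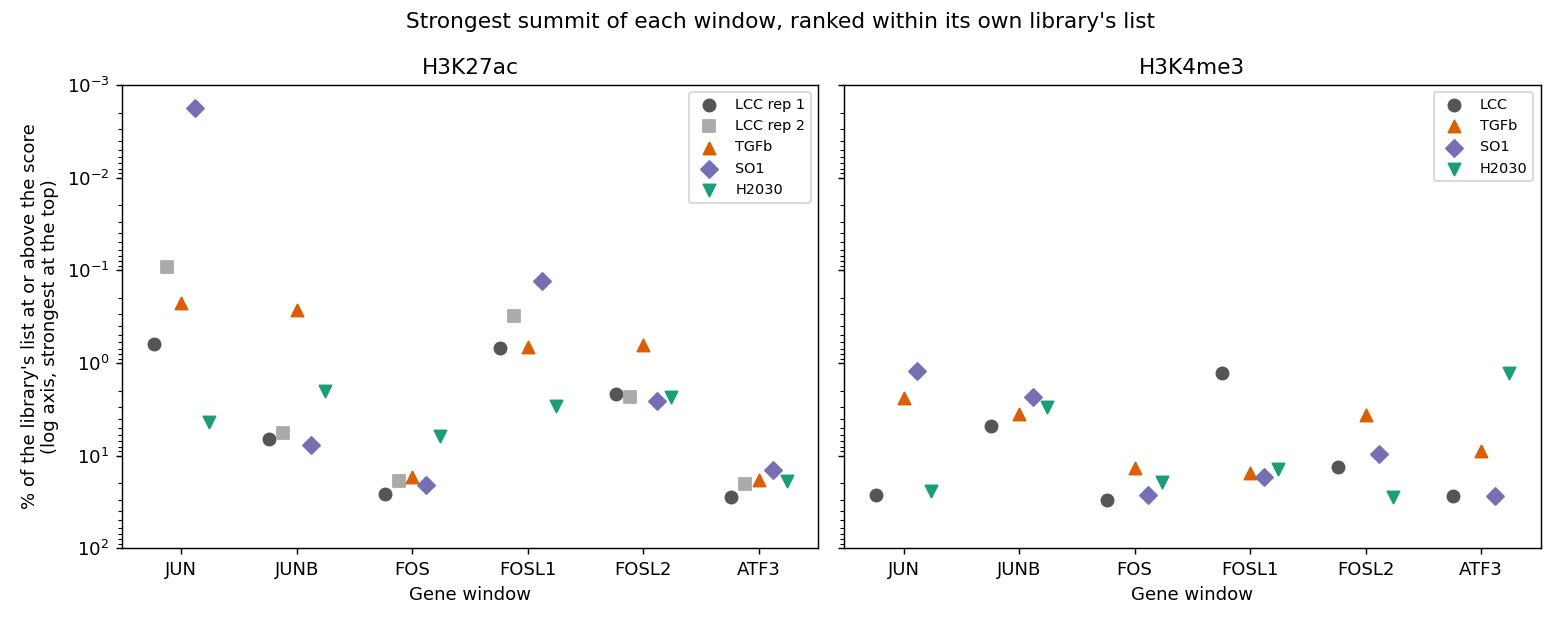
Strongest summit of each window, given as the percentage of its own library's list at or above its score (log axis, strongest at the top), for H3K27ac on the left and H3K4me3 on the right, 1 point per library. For H3K27ac, JUN and FOSL1 lie within the first 1% in each H2087 list and FOS and ATF3 lie between 6.12% and 28.0%; the 2 LCC replicates at JUN lie at 0.624% and 0.0921%, which shows how far replicates can differ.

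Over the 6 windows H3K27ac summits scored high within their lists. The windows were chosen with earlier results of these data known, so this describes them and is not a test. The median member score and the median of the whole list were 26.1 and 12.6 in LCC replicate 1, and 35.4 and 13.5 in replicate 2. They were 40.1 and 20.9 in TGFb, 79.7 and 30.1 in SO1, and 46.4 and 15.5 in H2030. The first 1% of a list held 2, 2, 4, 4 and 0 member summits in the same order.

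Summits of each mark were merged into sites to count those gained or lost against LCC. A gained site has a summit of the condition and none of LCC, a lost site the reverse, and for H3K27ac both LCC replicates had to lack or carry it. The H3K4me3 summits formed 26 sites, of which 14 (53.8%) had a summit in every list, against 41.3% of all 39776 sites. TGFb gained 1 site (3.8%), against 10.6% of all sites, and lost 3 (11.5%), against 4.22%. SO1 gained 4 (15.4%), against 13.6%, and lost 3 (11.5%), against 7.30%. H2030 gained 3 (11.5%), against 19.9%, and lost 5 (19.2%), against 20.8%. With so few sites, 1 site more or less moves these shares by several percentage points, and the SO1 and H2030 calls include the moved JUN summit.

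The H3K27ac summits formed 63 sites, of which 14 (22.2%) had a summit in every list, against 17.8% of all 100455 sites. TGFb gained 9 (14.3%), against 16.6%, and lost 3 (4.8%), against 3.71%. SO1 gained 4 (6.3%), against 12.5%, and lost 3 (4.8%), against 6.24%. H2030 gained 8 (12.7%), against 21.9%, and lost 8 (12.7%), against 16.3%. The LCC replicates themselves differed: 11 sites (17.5%) had a summit of replicate 2 and none of replicate 1, against 17.0% of all sites, and 12 (19.0%) the reverse, against 6.04%. Counts against both replicates are smaller than against 1 by construction, so each condition was also set against a single replicate. Against replicate 1 TGFb gained 14 and lost 12 sites, SO1 gained 11 and lost 12, and H2030 gained 12 and lost 16, beside the 11 and 12 of replicate 2. Against replicate 2 TGFb gained 13 and lost 10, SO1 gained 7 and lost 8, and H2030 gained 14 and lost 16, beside the 12 and 11 of replicate 1. The SO1 counts were no higher than those of the other LCC replicate and lay below them against replicate 2. The TGFb counts lay on either side of them, and the 16 losses of H2030 were the count farthest above. The condition counts come from sites merged without the other LCC replicate, and the replicate counts from sites merged over every H3K27ac list, so the site sets differ. No share over all sites was computed for counts against a single replicate, so they are not read as particular to the windows. H2030 also lost the largest share of all sites against both replicates, 16.3% beside 3.71% in TGFb and 6.24% in SO1.

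By the highest score, the H3K27ac gains in TGFb were mostly weak. The ATF3 site at chr1:212734907-212734956 scored 14.4, and those at FOSL2 scored 7.27 (chr2:28640048), 5.27 (chr2:28642454) and 4.21 (chr2:28651219-28651390). At JUN they scored 4.57 (chr1:59278110-59278222), 4.45 (chr1:59226015) and 2.27 (chr1:59287959), at FOSL1 6.87 (chr11:65673100) and at JUNB 3.90 (chr19:12891982). The 4 gains of SO1 were the same ATF3 site, with 23.4, and sites at FOSL2 (8.54, chr2:28627349), JUN (4.17, chr1:59284138) and JUNB (3.62, chr19:12895068). The strongest H2030 gain was the FOSL2 summit at chr2:28613722 beside the H3K4me3 site, with 349. The site chr2:28615279-28616040, 1557 bp away, counts as lost in H2030. The rule for sites thus counts a gain and a loss here although each list has a strong summit. The TGFb count was 3 when summits scoring under 10 were removed, and also 3 when all lists were reduced to equal length.

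The H3K4me1 summits formed 85 sites, of which 30 (35.3%) had a summit in every list, against 21.1% of all 220847 sites. TGFb gained 9 (10.6%), against 13.7%, and lost 13 (15.3%), against 13.6%. SO1 gained 8 (9.4%), against 14.1%, and lost 21 (24.7%), against 18.8%. H2030 gained 7 (8.2%), against 25.8%, and lost 26 (30.6%), against 30.4%. Losses outnumbered gains in all 3 conditions, but with scores of at least 10 TGFb gained 9 and lost 9 sites, and the H2030 gains were the count farthest below its share of all sites. No replicate of this mark exists to show how large a difference between libraries of LCC would be.

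The strongest H3K4me1 losses were at FOSL1, FOSL2 and JUN. In TGFb they were chr11:65682627-65683038 at FOSL1, then chr2:28612715-28612938 and chr2:28621276-28621395 at FOSL2, with LCC scores of 70.4, 50.3 and 50.2. In SO1 the leading ones were those at chr11:65670170-65670417 and chr11:65679018-65679028 described above, followed by chr2:28621276-28621395. In H2030 they were chr11:65679018-65679028, chr1:59231203-59231470 and chr11:65665948, the last with 48.2 in LCC and absent from all 3 other lists. The gain with the highest score was at FOSL1 in SO1, chr11:65664328-65664348, with 72.9, where TGFb scored 39.6 and the nearest LCC summit lay 1600 bp away. That LCC summit is the one at chr11:65665948, so in SO1 and TGFb the rule for sites counts a loss and a gain side by side. A moved summit cannot be told apart from a lost and a new one here.

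**Figure D4:**
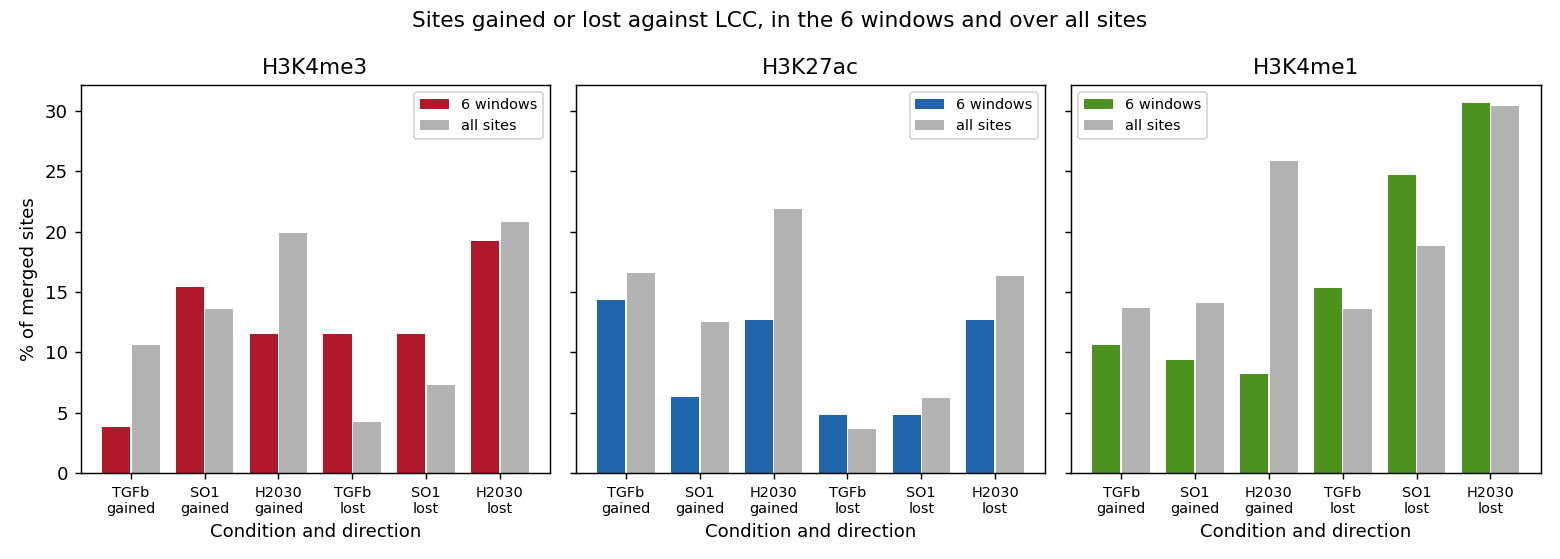
Percentage of merged sites gained or lost against LCC in TGFb, SO1 and H2030, in the 6 windows (coloured bars) and over all sites (grey bars), with 1 panel per mark. The largest gap is for H3K4me1 gained in H2030, at 8.2% in the windows and 25.8% over all sites; the bars rest on 26 H3K4me3, 63 H3K27ac and 85 H3K4me1 sites in the windows and carry no replicate error.

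Shares of LCC summits found again within 500 bp were also counted, without merging. They describe what was kept of LCC and cannot show gains, and they did not always follow the counts of lost sites. For H3K4me1 in TGFb, lost sites were 15.3% against 13.6% of all sites, yet the shared summits were above the share of the whole list. Of the 21 LCC H3K4me3 summits in the windows, 17 (81.0%, Wilson 95% interval 60.0 to 92.3) had a TGFb summit, against 90.3% of the whole list. SO1 also had 17 (81.0%), against 85.0%, and H2030 had 15 (71.4%, 50.0 to 86.2), against 62.7%. The whole-list values lie inside all 3 intervals, which here and below cover counting error only.

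Of the 40 H3K27ac summits of LCC replicate 1, 20 (50.0%, 35.2 to 64.8) had a TGFb summit, against 64.3% of its list, 20 (50.0%) had an SO1 summit, against 59.1%, and 17 (42.5%, 28.5 to 57.8) had an H2030 summit, against 37.1%. Of the 38 of replicate 2, 17 (44.7%, 30.1 to 60.3) had a TGFb summit, against 62.4%, 23 (60.5%, 44.7 to 74.4) an SO1 summit, against 53.3%, and 14 (36.8%, 23.4 to 52.7) an H2030 summit, against 32.6%. Between the replicates, replicate 2 matched 22 (55.0%, 39.8 to 69.3) of the 40, against 69.8%, and replicate 1 matched 21 (55.3%, 39.7 to 69.9) of the 38, against 56.1%. The mean shares were 47.4% ± 3.72 (SD, n = 2) for TGFb, 55.3% ± 7.44 (SD, n = 2) for SO1 and 39.7% ± 4.00 (SD, n = 2) for H2030. Each SD is over the 2 LCC lists, both matched to the same library of the condition, so it does not measure the error of the condition. The SO1 mean lay close to the shares between the replicates, and the TGFb and H2030 means lay below those shares. Over the whole lists the H2030 shares, 37.1% and 32.6%, also lay below those between the replicates, 69.8% and 56.1%. For TGFb the lower share of the members ended when summits counted as shared within 1000 bp. Then 65.0% of replicate 1 and 65.8% of replicate 2 summits had a TGFb summit, the same shares as between the replicates. For H2030 the shares were then 55.0% and 44.7%. The share of replicate 2 in TGFb and that of replicate 1 in replicate 2 were the 2 whose interval did not reach the whole-list value.

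Of the 78 LCC H3K4me1 summits, 55 (70.5%, 59.6 to 79.5) had a TGFb summit, against 62.1% of the list. SO1 had 41 (52.6%, 41.6 to 63.3), against 53.7%, and H2030 had 35 (44.9%, 34.3 to 55.9), against 35.0%. The order of the conditions was that of the whole list, and the whole-list values lie inside the intervals.

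H3K27ac summits were also classed by the other marks of the same condition within 1000 bp: promoter-like with H3K4me3, enhancer-like with H3K4me1 only, or with neither. In LCC replicate 1, 47.5% of the members were promoter-like and 40.0% enhancer-like, against 39.1% and 48.3% of the list. In replicate 2 the shares were 47.4% and 50.0%, against 32.3% and 52.8%. They were 38.5% and 35.9% in TGFb, against 32.3% and 55.8%, and 40.6% and 31.2% in H2030, against 35.3% and 46.0%. In SO1 they were 52.9% and 26.5%, against 39.1% and 51.4%. The promoter-like share was highest in SO1, but with a distance of 2500 bp it was higher in LCC replicate 1, with 25 of 40 summits, than in SO1, with 20 of 34. ATF3 and FOS summits were mostly promoter-like in all lists, from 71.4% to 100.0%, whereas at most 33.3% of the FOSL2 summits were promoter-like in any list.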

How the data were processed

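ChIP-seq libraries of 3 marks in 4 conditions were grouped by their titles, and the 5 input samples were not analysed here. The authors used Bowtie2, SAMtools and deepTools with hg19, per the submitters' processing notes, and the peak caller is not given in the sources used here. The authors' deposited score is a −log10 value, of either the p-value or the q-value (not settled), for summits called per library. Only chromosomes 1 to 22 and X were kept, so each list lost between 29 and 238 summits. A summit was shared within 500 bp, sites were merged within 1000 bp and classes used 1000 bp. Shares carry Wilson 95% intervals. The text names the strongest H3K4me3 and H3K27ac summit of each window and library, and up to 3 gained or lost sites per window, mark and condition, by score. RefSeq tables of GRCh38.p14 gave gene order and promoters only. Calls were tested on simulated lists with widely spaced sites that hardly moved, all held by both LCC replicates. Moved summits and differing replicates, both seen in these data, were not simulated. Members, windows and lists were chosen with earlier results of these data known. Python 3.11.15, NumPy 2.4.6, SciPy 1.17.1 and matplotlib 3.10.9 were used. Other merging and sharing distances, a score minimum of 10, equal list lengths, wider windows and leaving out each LCC replicate were tried.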

Additional observations from a re-analysis of the deposited data

How the results depend on the processing

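Of 180 alternatives, 46 moved a count by over 1.5 times or a share beyond its error, and 24 moved the percentage of a list at or above a strongest summit, which rises by construction when weak summits are removed. The others did not. Merging within 500 bp gave 2 H3K4me3 sites gained in TGFb, 6 H3K27ac sites lost in TGFb, and 7 gained and 5 lost in SO1. For H3K4me1 it gave 14 gained and 21 lost in TGFb, 14 gained and 34 lost in SO1, and 15 gained in H2030. Merging within 2500 bp gave 3 H3K27ac sites gained and 1 lost in TGFb, 0 gained and 0 lost in SO1, and 3 gained and 3 lost in H2030. For H3K4me1 it gave 3 gained and 4 lost in TGFb, 2 gained and 12 lost in SO1, and 3 gained and 15 lost in H2030. Fewer and wider sites follow from the longer distance itself. With scores of at least 10, TGFb gained 0 and SO1 gained 7 H3K4me3 sites, TGFb gained 3 and H2030 gained 5 H3K27ac sites, and SO1 lost 9 and H2030 lost 17 H3K4me1 sites. The share of LCC H3K4me1 summits found in SO1 was then 63.5%. With lists of equal length TGFb gained 3 H3K27ac sites. With LCC replicate 1 or 2 left out, H3K27ac sites gained in TGFb came to 13 and 14, lost in TGFb to 10 and 12, gained in SO1 to 7 and 11, lost in SO1 to 8 and 12, gained in H2030 to 14 and 12, and lost in H2030 to 16 and 16. A sharing distance of 1000 bp gave 65.0% of LCC replicate 1 and 65.8% of replicate 2 H3K27ac summits in TGFb, and 79.5%, 67.9% and 60.3% of the LCC H3K4me1 summits in TGFb, SO1 and H2030. A distance of 250 bp gave 25.0% of replicate 1 summits in H2030 and 53.8% of LCC H3K4me1 summits in TGFb. Where the text gives no construction as the reason, the cause was not tested. No paired analysis was possible because the replicate numbers shared by LCC H3K27ac and LCC input join a mark with an input that was not analysed here, and no test was run. With 1 library per condition and mark, depth, antibody pulldown and condition cannot be told apart.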
